A study of Mus musculus with 12 samples.

Results

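The Trav3 family of the mouse T cell receptor alpha locus (Tcra) was followed across 12 Tcra repertoires. Its members are all rows named TRAV3-n or TRAV3D-n, whatever the Traj partner, which gave 4 of the 85 Trav segments listed in any table and 172 of the 3397 Trav-Traj pairs formed by the 79 Trav segments listed in every table. In the tables' row order of those 79 segments, which places the segments farthest from the Jα array first, TRAV3-1 stood at place 2, TRAV3D-3 at 29, TRAV3-3 at 64 and TRAV3-4 at 74. All 4 copies were listed in every table.

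The libraries were made from CD3e-negative CD4+ CD8+ double-positive (DP) thymocytes of mice aged 4 to 6 weeks, homozygous for a knockout of DPASE (KO) or for the wild-type allele (WT). As background, DPASE belongs to the regulatory elements of Rag1 and Rag2, the genes of the recombinase that joins V and J segments. Every mouse, KO or WT, also carried TcrdCreER, in which Tcrd-expressing cells make a tamoxifen-dependent Cre, and 1 copy of the Cre reporter Rosa26ZsG, on C57BL/6J with strain 129 sequence at the Tcra-Tcrd loci. The 6 groups were KO and WT cells at steady state without tamoxifen, and KO and WT cells that were ZsGreen+ 24 h or 48 h after 1 mg of tamoxifen, with 2 libraries in each. The design text speaks of 2 mice per group, and no label ties a library to its own mouse, so p-values measure the spread between libraries, which may be partly technical.

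A Tcra gene is assembled by joining a Trav segment to a Traj segment, and one allele can be joined several times. Early rounds use Trav segments near the Jα array and Traj segments at its 5′ end, and later rounds replace these with Trav segments farther upstream and Traj segments farther downstream. In the mouse much of the Trav array is duplicated, and a D in a name marks a copy in the duplicated part, so that one family recurs along the array. Traj numbers fall in the 5′ to 3′ direction, so a high mean Jα number marks joins near the 5′ end.

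The 4 copies differ in place, and Trav3d-3 with Trav3-3 and Trav3-1 with Trav3-4 differ little in sequence. In GENCODE M21 on GRCm38, a C57BL/6J build whose distances may differ from those of the labelled strain 129 locus, all lie on the plus strand of chromosome 14, and each has a leader exon and a V exon. The ends of Trav3-1, Trav3d-3, Trav3-3 and Trav3-4 lie 1576, 1184, 491 and 380 kb before the start of Traj58, which is the most 5′ partner in the tables. The V regions below are stretches of 276 coding bases within the V exon, taken from the GENCODE transcripts. They are shown because they hold the differences between the copies within the V region, and other parts of the transcripts, such as the leader, were not compared here. Capitals mark the bases that differ from Trav3-3, and in Trav3-3 those that differ from Trav3d-3. They lie at chr14:52580934-52581209 for Trav3-1, chr14:52972759-52973034 for Trav3d-3, chr14:53666227-53666502 for Trav3-3 and chr14:53777297-53777572 for Trav3-4.
Trav3-1: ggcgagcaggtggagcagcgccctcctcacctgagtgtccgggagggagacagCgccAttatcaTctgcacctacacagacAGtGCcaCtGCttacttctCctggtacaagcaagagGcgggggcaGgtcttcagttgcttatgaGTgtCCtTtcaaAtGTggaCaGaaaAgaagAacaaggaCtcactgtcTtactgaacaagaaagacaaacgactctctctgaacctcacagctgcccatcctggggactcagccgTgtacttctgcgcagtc
Trav3d-3: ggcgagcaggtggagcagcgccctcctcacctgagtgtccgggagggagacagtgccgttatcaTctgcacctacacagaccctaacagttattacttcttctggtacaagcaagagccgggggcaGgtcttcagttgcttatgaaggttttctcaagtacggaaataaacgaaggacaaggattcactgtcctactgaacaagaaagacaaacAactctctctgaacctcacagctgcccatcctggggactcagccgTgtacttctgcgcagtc
Trav3-3: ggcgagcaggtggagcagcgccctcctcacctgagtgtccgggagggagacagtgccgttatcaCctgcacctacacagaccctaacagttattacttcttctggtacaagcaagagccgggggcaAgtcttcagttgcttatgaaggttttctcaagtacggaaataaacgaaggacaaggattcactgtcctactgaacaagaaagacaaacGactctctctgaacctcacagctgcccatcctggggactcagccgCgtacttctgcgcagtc
Trav3-4: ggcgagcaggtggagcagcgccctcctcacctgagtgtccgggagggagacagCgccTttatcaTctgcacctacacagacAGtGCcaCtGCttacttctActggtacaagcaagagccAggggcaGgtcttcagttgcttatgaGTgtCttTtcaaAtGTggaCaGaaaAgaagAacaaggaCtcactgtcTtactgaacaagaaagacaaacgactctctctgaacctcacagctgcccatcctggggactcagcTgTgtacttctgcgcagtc

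Trav3d-3 differs from Trav3-3 at 4 of the 276 bases (C65T, A127G, G215A and C260T, with the Trav3-3 base first and positions counted from 1 at the 5′ end of the stretch). Trav3-1 differs from Trav3-4 at 6 bases, although these copies are the outermost of the 4, and by 26 to 28 bases from the other 2. Trav3n-3, a further annotated gene at chr14:53283896-53284171, is identical to Trav3d-3 over these bases and was not analysed here. The method by which the authors assigned reads to copies is not given in the sources used here, so the split between TRAV3D-3 and TRAV3-3, and between TRAV3-1 and TRAV3-4, is uncertain in a way that the family total is not.

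The values are the authors' fractions of each repertoire, divided here by the table's own total. They are shares taken from RNA, in a counted unit that is not given. Fewer cells with a join and less RNA per cell cannot be told apart, and a rise of one segment lowers the shares of others. No depth in reads is given. Totals were 0.995 to 0.998 in 8 tables and 1.97 to 1.99 in the 4 tables of replicate 2 at 24 h and at 48 h, both genotypes alike. These 4 tables, called coarse below, had a smallest share above 0 of 0.00401% to 0.00937%, against 0.000336% to 0.000853% in the 8. They listed 21 to 66 of the 172 Trav3 pairs at 0, against 0 to 8. Joins of Trav segments with a DV suffix, a sign that Tcrd can use them too, made up 23.6% to 33.2% of the coarse tables and 11% to 16.4% of the 8. The pairs that mark invariant NKT cells (TRAV11 or TRAV11D with TRAJ18) and MAIT cells (TRAV1 with TRAJ33) each stayed at or below 0.0504% in every KO or WT library.

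The Trav3 family held a larger share of the KO repertoire than of the WT repertoire in 5 of 6 same-numbered pairs of libraries. No label states that same-numbered libraries belong together, and this pairing, also used for the replicate block below, was taken from the data. At steady state it took 7.46% and 7.23% in the KO libraries, against 6.76% and 6.55% in the WT libraries, and the groups did not overlap. At 24 h it took 8.36% and 7.93% in the KO libraries, against 7.23% and 8.34% in the WT libraries, and here the coarse pair ran the other way. At 48 h it took 7.43% and 8.43% in the KO libraries, against 6.52% and 5.01% in the WT libraries, again without overlap. KO minus WT averaged 1.07 percentage points over the 3 samplings (exact permutation of genotype within each sampling, two-sided, p = 0.0185, adjusted p = 0.0278 over 15 measures, where 0.00926 is the smallest p the arrangements allow). The call was lost with a replicate block (adjusted p = 0.0721, smallest p 0.0312). It was also lost without WT 24 h replicate 1 (0.89 points, adjusted p = 0.0694), KO 24 h replicate 1 (1.00 points, 0.0810), WT 48 h replicate 2 (0.823 points, 0.0534) or KO 48 h replicate 2 (0.908 points, 0.0926), all by the same exact test.

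Among the copies, the proximal TRAV3-3 and TRAV3-4 stood above WT in KO libraries at steady state, while the distal TRAV3-1 and TRAV3D-3 stood below. TRAV3-1, the most distal copy, made up 1.20% and 1.22% of the KO libraries at steady state, against 1.45% and 1.48% of the WT libraries. TRAV3D-3, the copy in the duplicated part, made up 1.67% and 1.80% in KO, against 1.93% and 1.91% in WT. TRAV3-3, the most used copy of the 4 at steady state, made up 3.13% and 3.08% in KO, against 2.38% and 2.37% in WT. In each of these 3 copies the 2 libraries of a genotype lay close together and the genotypes did not overlap. TRAV3-4, the copy nearest to the Jα array, made up 1.46% and 1.14% in KO, against 0.996% and 0.797% in WT, also without overlap. The share of other segments without overlap was not counted. The direction was not particular to Trav3. In steady-state means of 2 libraries, every segment before TRAV3D-3 in the row order was lower in KO. Every segment after TRAV3-3 was higher in KO, except TRAV9-4 (1.04% in KO and 1.07% in WT).

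At 24 h and 48 h the 2 libraries of a group lay farther apart than the genotypes for most copies. TRAV3-1 made up 0.143% and 0.593% of the KO libraries at 24 h, against 0.191% and 0.647% of the WT libraries. Its share at 48 h was 0.686% and 1.88% in KO, against 1.29% and 1.65% in WT. The second value of each group comes from a coarse table and is the higher one. TRAV3D-3 made up 0.702% and 0.735% in KO at 24 h, against 0.754% and 0.644% in WT, and the genotypes overlapped. After 48 h it made up 1.56% and 1.22% in KO, against 1.87% and 0.87% in WT, where the 2 WT libraries lay on both sides of KO. The next copy toward the Jα array showed the reverse of TRAV3-1, with the coarse table the lower of each group. TRAV3-3 made up 4.52% and 2.40% in KO at 24 h, against 4.03% and 2.54% in WT. At 48 h it made up 3.84% and 2.42% in KO, against 2.50% and 1.31% in WT, and only KO replicate 2 fell below a WT library. TRAV3-4 made up 3.0% and 4.20% in KO at 24 h, against 2.26% and 4.50% in WT. At 48 h it made up 1.35% and 2.92% in KO, against 0.856% and 1.18% in WT, without overlap. Replicate 2 stood above replicate 1 for TRAV3-1 and TRAV3-4 in all 4 groups of labelled cells, as for 22.8% of the 79 segments, and below it for TRAV3-3, as for 54.4%.

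**Figure D1:**
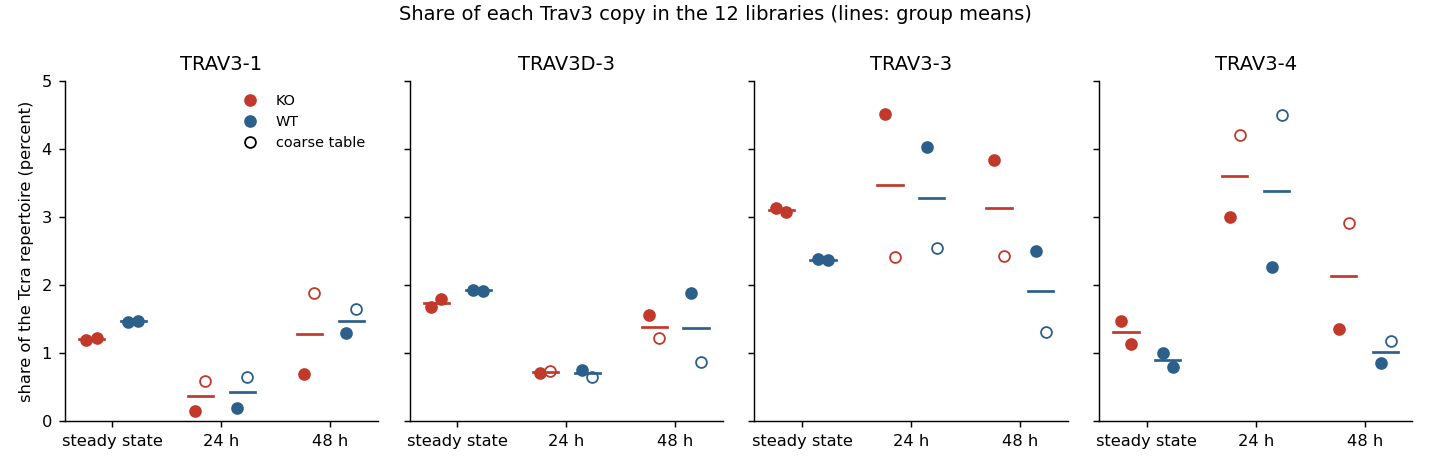
Share of the Tcra repertoire in percent (y axis) of each Trav3 copy (panels, from distal to proximal) at steady state, 24 h and 48 h, KO in red left of WT in blue, with 1 point per library, open points for the coarse tables and lines at the means of 2 libraries. At steady state TRAV3-1 and TRAV3D-3 lay lower, and TRAV3-3 and TRAV3-4 higher, in KO than in WT, while at 24 h and 48 h open and filled points of 1 group were often farther apart than the genotypes.

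No copy passed the test across segments in any contrast. With limma on log2(percent + 0.01), adjusted by Benjamini-Hochberg over 79 segments, 0 of 4 copies and 0% of all segments were called for KO against WT at any of the 3 samplings or in their mean, and 0 of 4 copies had an unadjusted p below 0.05. The mean log2 fold change of KO over WT was -0.30 ± 0.45 (SE) for TRAV3-1, 0.00 ± 0.22 for TRAV3D-3, 0.39 ± 0.27 for TRAV3-3 and 0.55 ± 0.28 for TRAV3-4. The median of the 4 copies was 0.20, against -0.10 over all 79 segments. With the replicate number as a block, TRAV3-3 (adjusted p = 0.0170) and TRAV3-4 (0.0181) were called higher in that mean, as were 19% of segments (43% in either direction), and at 48 h (log2 fold changes of 0.75 and 0.98, adjusted p = 0.0278 and 0.0310), again as were 19% (35.4% in either direction). At steady state and at 24 h the block fit of limma called 0 of 4 copies, where 0% and 5.06% of segments were called. Without the 4 coarse tables, TRAV3-1 was called lower (-0.52, adjusted p = 0.0259) and TRAV3-3 (0.39, 0.0259) and TRAV3-4 (0.53, 0.0458) higher in the mean, where 30.4% and 11.4% of segments were called lower and higher. In that fit 24 h and 48 h have 1 library per genotype, which is assumed to vary like the steady-state libraries.

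The use of the family lay more toward its proximal copies in KO than in WT at steady state and at 48 h, while at 24 h the genotypes overlapped. The same measure was not computed for other families. The D copies of Trav6, Trav7, Trav9, Trav12, Trav13 and Trav14 were also lower in KO at steady state, in means of 2 libraries. The mean place of Trav3 in the row order, with each copy weighted by its share, was 47.3 ± 1.27 in KO and 41.6 ± 0.781 in WT at steady state, 62.5 ± 1.53 in KO and 61.9 ± 0.0399 in WT at 24 h, and 50.7 ± 2.94 in KO and 41.4 ± 2.22 in WT at 48 h (SD, n = 2 libraries each). The mean difference was 5.20 places, with KO higher in 5 of 6 pairs (exact permutation test, adjusted p = 0.0379). With the replicate block its adjusted p was 0.0721, without WT 24 h replicate 1 it was 0.0521 and without KO 24 h replicate 1 it was 0.0758, which ends the call each time. The part of the family held by TRAV3D-3 was 23.6% ± 1.72 in KO and 28.9% ± 0.41 in WT at steady state, 8.83% ± 0.618 in KO and 9.08% ± 1.92 in WT at 24 h, and 17.7% ± 4.61 in KO and 23.1% ± 8.05 in WT at 48 h (SD, n = 2 each). Its mean difference of -3.63 percentage points was not past the threshold (exact permutation test, adjusted p = 0.128). Over left-out libraries it ran from -5.52 (WT 48 h replicate 2 left out) to -1.73 (WT 48 h replicate 1 left out), with adjusted p of 0.0534 to 0.466 in the exact permutation test.

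The copies were joined to different parts of the Jα array. At steady state TRAV3-1 had a mean Jα number of 27.4 and 27.4 in the KO libraries, against 21.9 and 21.2 in the WT libraries. TRAV3D-3 had 29.3 and 27.8 in KO, against 24.2 and 22.1 in WT. These 2 distal copies lay within 3 Jα numbers of each other in every steady-state library and far from the proximal copies. TRAV3-3 had 38.5 and 37.8 in KO, against 35.7 and 35.9 in WT, and TRAV3-4 had 44.8 and 43.8 in KO, against 43.2 and 42.9 in WT. The order by mean Jα number was the order of the rows in each of these 4 libraries. Within a library TRAV3D-3 exceeded TRAV3-1 by 2.68 ± 2.11 on average, in 11 of 12 libraries. TRAV3-3 exceeded TRAV3D-3 by 6.16 ± 4.80, in 11 of 12, and TRAV3-4 exceeded TRAV3-3 by 5.79 ± 1.55, in 12 of 12 (SD over the 12 libraries). Each of these 3 differences had an adjusted p of 0.00195 in an exact sign-flip permutation test that takes the 12 libraries as independent, a test added after the values were seen. With same-numbered KO and WT libraries flipped together none of the 3 passed. The adjusted p was then 0.0625 for TRAV3D-3 over TRAV3-1, 0.0833 for TRAV3-3 over TRAV3D-3 and 0.0625 for TRAV3-4 over TRAV3-3 (exact sign-flip permutation over 6 pairs, smallest p 0.0312).

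**Figure D2:**
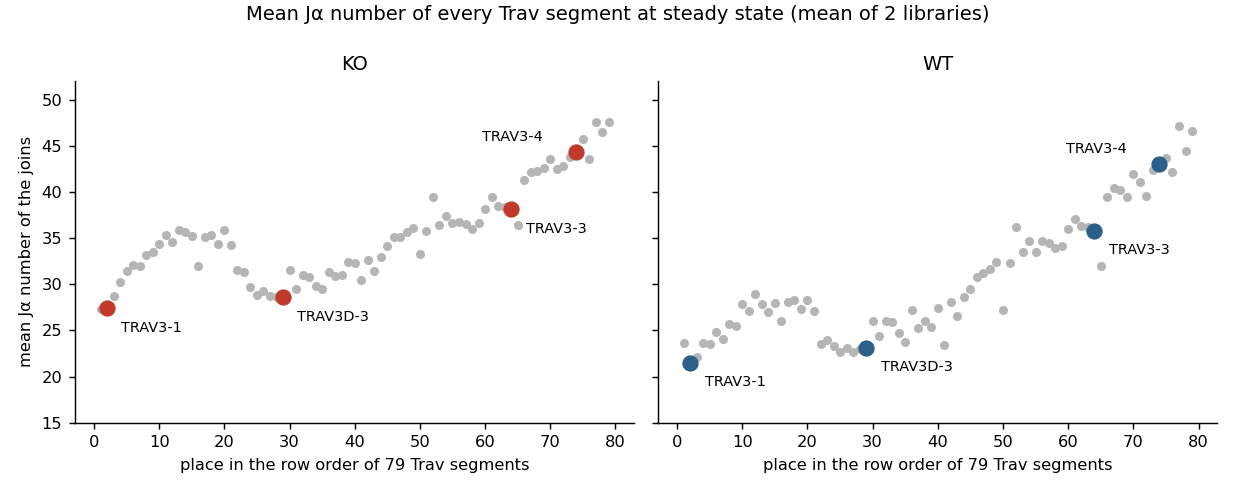
Mean Jα number of the joins (y axis) of every Trav segment at steady state against its place in the row order (x axis), for KO on the left and WT on the right, as means of 2 libraries, with the Trav3 copies coloured and named. The copies follow the course of the segments around them, with TRAV3-1 and TRAV3D-3 near the low points of the curve and TRAV3-4 near its top.

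Some neighbours in the row order lay close to the copies and others did not. At steady state TRAV3-1 had the second lowest mean Jα number of the 79 segments in KO and the lowest in WT, and TRAV3D-3 the third lowest in KO and the seventh lowest in WT, 27 places farther along the row order. Its neighbour TRAV15D-2/DV6D-2 stood at 28.6 in KO and 22.9 in WT, and TRAV3D-3 exceeded it in 6 of 12 libraries. Its other neighbour TRAV9D-4 stood higher at steady state, at 31.6 in KO and 26.0 in WT, and TRAV3D-3 exceeded it in 5 of 12. TRAV3-3 exceeded its neighbour TRAV15-2/DV6-2 (38.3 in KO and 36.2 in WT at steady state) in 4 of 12 libraries and TRAV9-4, which stood lower at 36.4 in KO and 31.9 in WT, in 6 of 12. TRAV3-4 exceeded TRAV14-3 (43.8 in KO and 42.4 in WT) in 10 of 12 and its other neighbour TRAV13-5 (45.7 in KO and 43.7 in WT) in 2 of 12. TRAV3-1 exceeded the segment after it, TRAV6-1 (28.7 in KO and 22.1 in WT), in 1 of 12 libraries. It exceeded TRAV1, the segment before it (27.3 in KO and 23.7 in WT), in 7 of 12, with differences from -2.37 to 16.0 Jα numbers over the libraries.

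In KO every copy was joined farther 5′ in the Jα array than in WT, in each of the 6 same-numbered pairs. For the family, the mean Jα number at steady state was 35.9 and 34.5 in the KO libraries, against 30.5 and 29.4 in the WT libraries. At 24 h it was 44.4 and 47.3 in KO, against 41.0 and 44.0 in WT, and only there did the genotypes come close. At 48 h it was 38.2 and 38.4 in KO, against 31.5 and 33.3 in WT. The mean difference was 4.82 Jα numbers, with KO higher in 6 of 6 pairs (exact permutation test, adjusted p = 0.0174, and 0.0469 with the replicate block, each resting on the smallest p its arrangements allow).

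The 4 copies each passed the same test, with KO higher in 6 of 6 pairs. Single segments outside the family were not put to this test, so the share of them that would pass is not known. The direction was not particular to the copies. At steady state every one of the 79 segments had a higher mean Jα number in KO, in means of 2 libraries. The other families that were compared also had a higher mean Jα number in KO at each sampling. The mean difference was 4.79 for TRAV3-1 (adjusted p = 0.0463) and 5.90 for TRAV3D-3 (0.0278), and it was 3.07 for TRAV3-3 (0.0174) and 2.00 for TRAV3-4 (0.0174), by the exact permutation test. Whether the difference itself varies between copies was not tested. TRAV3-1 showed the widest spread between libraries at 24 h, with 33.1 and 44.0 in KO, against 30.8 and 38.5 in WT, the second of each from a coarse table. Its call was lost when any one library was left out except WT 24 h replicate 2 and KO 24 h replicate 1, with differences of 2.98 to 5.26 and adjusted p of 0.0505 to 0.224 over those 10. The call for TRAV3D-3 was lost without WT 24 h replicate 1 (difference 5.09, adjusted p = 0.0694), KO 48 h replicate 1 (6.15, 0.0505) or KO 48 h replicate 2 (5.65, 0.0556) in the exact permutation test.

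**Figure D3:**
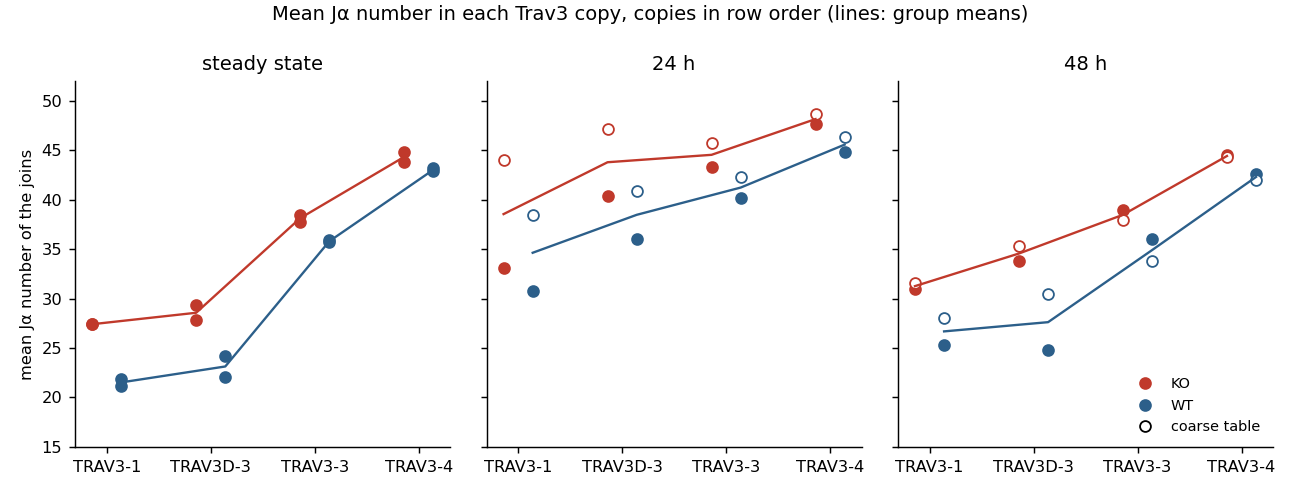
Mean Jα number of the joins (y axis) of the 4 Trav3 copies in row order (x axis) at steady state, 24 h and 48 h, KO in red left of WT in blue, with 1 point per library, open points for the coarse tables and lines through the means of 2 libraries. The KO line lies above the WT line for every copy at each sampling, and both lines climb from TRAV3-1 to TRAV3-4.

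A gap between the Trav3 family and the other Trav segments was not past the threshold. Its mean Jα number minus that of all other Trav segments of the same library averaged -0.389 ± 0.625 (SD, 12 libraries), lower in 10 and higher in 2 (exact sign-flip permutation test, p = 0.0576, and 0.188 with pairs of libraries flipped together). The KO minus WT difference of that gap was -0.201 (exact permutation test, adjusted p = 0.574). Families that also hold D copies had steady-state means beside the 35.2 in KO and 30.0 in WT of Trav3: 33.3 in KO and 27.7 in WT for Trav7, 35.1 in KO and 29.5 in WT for Trav6, and 37.4 in KO and 33.1 in WT for Trav14.

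The shift was visible at both ends of the Jα array. The 5′ window (13 segments, Traj58 to Traj42) took 38.3% ± 3.08 of Trav3 joins in KO and 27.9% ± 1.98 in WT at steady state, 73.2% ± 6.33 in KO and 61.3% ± 8.89 in WT at 24 h, and 45% ± 0.501 in KO and 29.0% ± 0.754 in WT at 48 h (SD, n = 2 each). The 3′ window (14 segments, Traj21 to Traj2) took 19.0% ± 1.83 in KO and 32.5% ± 1.81 in WT at steady state, 3.03% ± 1.35 in KO and 5.98% ± 1.97 in WT at 24 h, and 10.4% ± 0.634 in KO and 23.3% ± 4.96 in WT at 48 h. The mean differences were 12.7 and -9.78 percentage points, in 6 of 6 pairs each. Traj58 to Traj53, the window of the TEA promoter, which drives germline transcription of the array from its 5′ end, rose by 4.83 points. Traj52 to Traj45, around the Traj49 promoter, rose by 6.79 points. At the far 3′ end, Traj11 to Traj2 together fell by 5.54 points. These 5 measures each had an adjusted p of 0.0174 in the exact permutation test. With the 4 copies weighted equally the calls of the 5′ window (9.34 points), the TEA window (3.51) and the Traj49 window (5.29) were lost (exact permutation test, adjusted p = 0.0694 each). The TEA call was lost without WT 24 h replicate 1 (3.79 points, adjusted p = 0.203) or KO 24 h replicate 2 (3.08 points, 0.0758). The middle window (16 segments, Traj40 to Traj22) did not pass, at -2.95 points (exact permutation test, adjusted p = 0.357). It ran from -4.59 without WT 24 h replicate 2 to -1.32 without WT 24 h replicate 1.

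The same ends were compared within single copies at steady state, without a test of whether the amounts differ between copies. In TRAV3-1 the 3′ window held 30.1% and 29.6% of joins in the KO libraries at steady state, against 49.2% and 51.8% in the WT libraries, and the 5′ window held 7.57% and 7.13% in KO, against 3.87% and 3.73% in WT. In TRAV3D-3 the 3′ window held 31.1% and 35.7% in KO, against 46.5% and 52.2% in WT, and the 5′ window held 21.7% and 18.4% in KO, against 14.6% and 10.2% in WT. In both distal copies the 3′ share was lower in KO without overlap of the genotypes. In TRAV3-4 the 3′ window held 5.31% and 6.49% in KO, against 7.68% and 7.21% in WT, and the 5′ window held 70.4% and 66.5% in KO, against 64.9% and 63.2% in WT. In TRAV3-3 the 3′ window held 11.7% and 12.8% in KO, against 17.7% and 16.6% in WT, and the 5′ window held 49.0% and 46.7% in KO, against 42% and 41.6% in WT. In all 4 copies the genotypes overlapped in neither window at steady state. Segments outside the family were not compared by window, so the share of them without overlap is not known. The direction of the shift was not particular to Trav3. The mean Jα number at steady state was higher in KO for every one of the 79 segments, in means of 2 libraries. This held from TRAV1 (27.3 in KO and 23.7 in WT) to TRAV21/DV12 (47.5 in KO and 46.5 in WT).

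The leading partners differed between distal and proximal copies. At steady state Traj31, in the middle of the array, was the leading partner of TRAV3-1 in every library and took 7.51% ± 0.37 of its joins in KO and 5.61% ± 0.236 in WT (SD, n = 2 each). Traj4, near the 3′ end, took 0.986% ± 0.0423 of TRAV3-1 joins in KO and 5.01% ± 0.201 in WT. The highest mean of TRAV3D-3 was that of Traj31 in KO (5.04% ± 0.195) and that of Traj15 in WT (4.78% ± 0.0904), farther 3′ than the leader of TRAV3-1. Traj4 took 1.49% ± 0.272 of TRAV3D-3 joins in KO and 4.40% ± 0.899 in WT. The leading partner of TRAV3-3 was Traj45 in both KO libraries and Traj48 or Traj49 in the WT libraries, and Traj45 took 5.78% ± 0.374 in KO and 4.78% ± 0.152 in WT. TRAV3-4 was led in KO by Traj49, which took 8.80% ± 0.0545 in KO and 7.59% ± 0.318 in WT, and in the WT mean by Traj56, which took 8.22% ± 0.36 in KO and 8.33% ± 0.798 in WT. The genotypes overlapped at Traj56. Traj50, within the Traj49 window, took 5.40% ± 0.0773 of TRAV3-4 joins in KO and 3.94% ± 0.218 in WT. As shares of the repertoire, none of the pairs named in this paragraph was called between genotypes by limma.

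**Figure D4:**
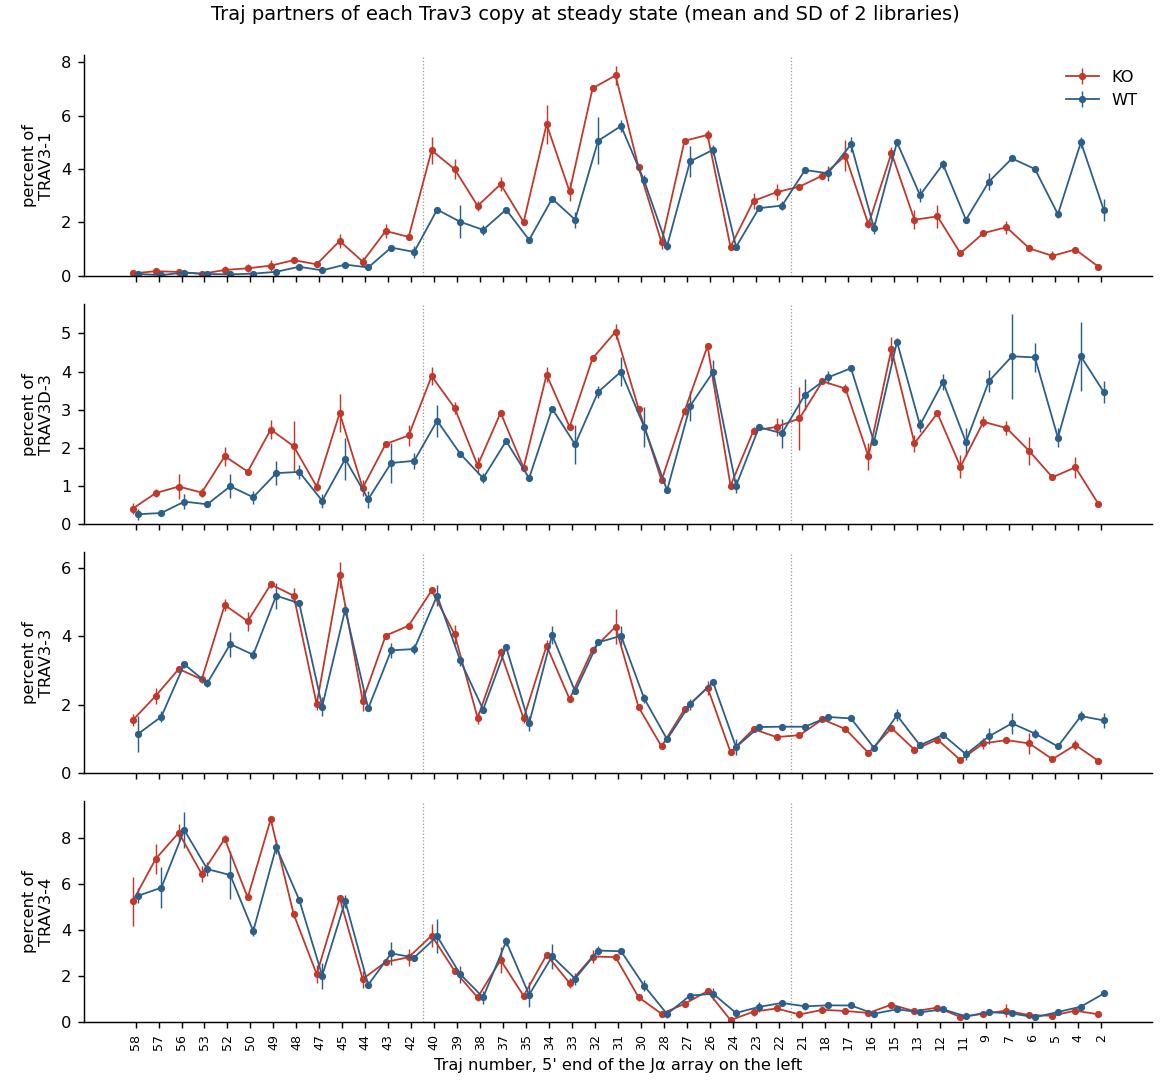
Percent of the joins of each Trav3 copy (y axes) taken by each of the 43 Traj segments (x axis, 5′ end of the array on the left) at steady state, KO in red left of WT in blue, as the mean and SD of 2 libraries, with dotted lines between the 5′, middle and 3′ windows. TRAV3-1 and TRAV3D-3 are joined mostly to middle and 3′ segments and TRAV3-4 mostly to 5′ segments. At Traj4 the KO points of TRAV3-1 (0.986%) lie under the WT points (5.01%), a pair that limma did not call between genotypes.

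The 5 pairs with the highest mean share over the 12 libraries all joined a proximal copy to the 5′ window: TRAV3-4 with Traj56 and Traj52, and TRAV3-3 with Traj49, Traj45 and Traj48. Each of the 5 had its highest share in a 24 h library, which weighs on this order. TRAV3-4 with Traj56 took 0.319% and 0.857% of the KO repertoire at 24 h, against 0.219% and 0.539% of the WT repertoire. At 48 h the same pair took 0.105% and 0.25% in KO, against 0.068% and 0.132% in WT. TRAV3-3 with Traj45 took 0.244% and 0.22% in KO at 48 h, against 0.115% and 0.0376% in WT. KO lay above the WT library of the same number in 6 of 6 pairs of libraries for these 2 and for TRAV3-4 with Traj52. For TRAV3-3 with Traj49 and with Traj48 it did so in 5 of 6. The exception was replicate 2 at 24 h, with 0.187% in KO against 0.225% in WT for Traj49, and 0.170% in KO against 0.193% in WT for Traj48.

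Summed over the 4 copies, the partners that rose in KO lay in the 5′ window or beside it and those that fell lay in the 3′ window. In the mean of the 3 samplings, limma on log2(percent + 0.01) with Benjamini-Hochberg adjustment over 817 combinations of a Trav family and a Traj called 10 of the 43 Trav3 combinations, 6 higher and 4 lower, where 11.6% of all combinations were called (2.57% higher and 9.06% lower). Traj57 (log2 fold change 0.78 ± 0.20 SE), Traj52 (0.87 ± 0.18), Traj50 (0.62 ± 0.16), Traj49 (0.72 ± 0.19) and Traj45 (0.69 ± 0.15) of the 5′ window rose, and so did Traj40 (0.54 ± 0.12). Traj16 (-0.61 ± 0.15), Traj12 (-0.70 ± 0.17), Traj6 (-1.19 ± 0.24) and Traj5 (-0.77 ± 0.20) of the 3′ window fell, with adjusted p of 0.0299 to 0.0497 over the 10. The fold change was positive for 13 of 13 partners in the 5′ window, with a median of 0.64, and negative for 14 of 14 in the 3′ window, with a median of -0.74. The median was -0.01 over the 43 Trav3 combinations and -0.09 over all 817, which pools the windows. Counts by window were not made for other families. In Trav6, Trav7, Trav9, Trav12, Trav13 and Trav14 the mean Jα number was also higher in KO at each sampling.

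Of the 10, Traj57, Traj50, Traj40, Traj12, Traj6 and Traj5 also separated the genotypes without overlap, in 1 direction, at every sampling. These 6 are 60% of the called Trav3 combinations, against 68.4% of the 95 called over all families. Called or not, 8 of 43 Trav3 combinations (18.6%) and 10.9% of all 817 met that rule, and 7.96% of all 817 met it and were called. Trav3 with Traj6 took 0.0638% and 0.0887% of the KO libraries at steady state, against 0.169% and 0.175% of the WT libraries. At 24 h it took 0.0123% and 0.0118% in KO, against 0.0291% and 0.0165% in WT. The 48 h values were 0.0327% and 0.00751% in KO, against 0.106% and 0.0849% in WT. Trav3 with Traj57 took 0.204% and 0.155% in KO at steady state, against 0.113% and 0.0828% in WT. At 24 h it took 0.447% and 0.546% in KO, against 0.217% and 0.399% in WT. The genotypes did not overlap for either partner, and for Traj6 they lay closest at 24 h.

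**Figure D5:**
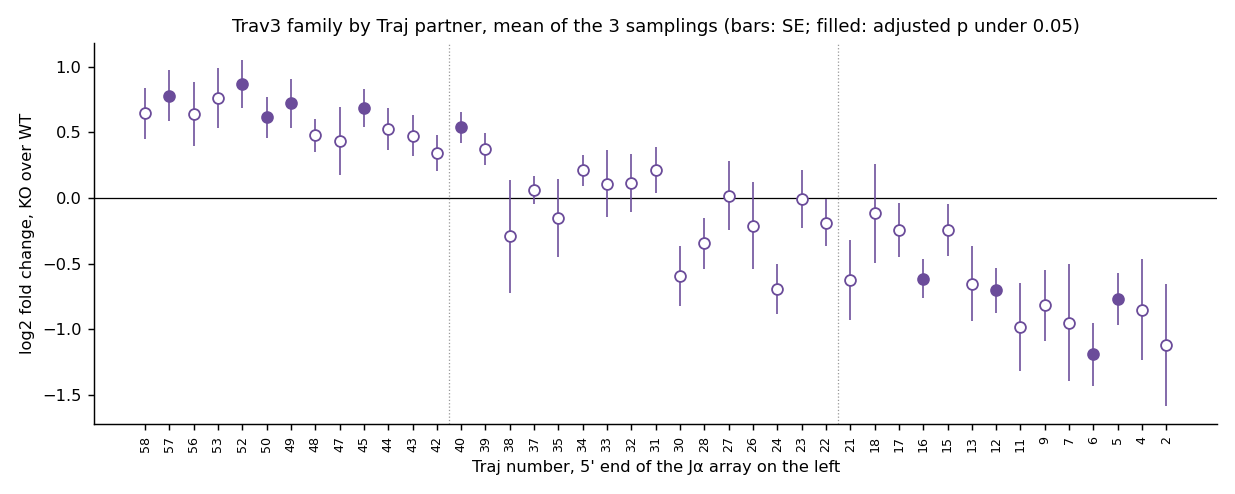
Log2 fold change of KO over WT (y axis, mean of the 3 samplings, on the log2(percent + 0.01) scale) of the Trav3 family with each of the 43 Traj segments (x axis, 5′ end of the array on the left), with bars for the SE and filled points for an adjusted p under 0.05. All 13 points of the 5′ window lie above 0 and all 14 points of the 3′ window below it.

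At single samplings fewer combinations passed. At 48 h, Traj45 (log2 fold change 1.31 ± 0.25 SE, adjusted p = 0.0376) and Traj40 (1.06 ± 0.20, 0.0373) were higher and Traj6 (-1.94 ± 0.41, 0.0457) lower in KO by limma, 3 of 43 Trav3 combinations where 4.28% of all were called. Trav3 with Traj45 took 0.402% and 0.516% of the KO libraries, against 0.198% and 0.161% of the WT libraries. At steady state and at 24 h limma called 0 of 43, where 1.59% and 0% of all were called. At each, 8 of 43 had an unadjusted p under 0.05, and the share of all combinations at that level is not given here. With the replicate block 19 Trav3 combinations were called in the mean and 12 at 48 h (30.7% and 17% of all). Without the coarse tables, limma called 31 in the mean (53.7% of all). In that fit it called 16 for steady state, 5 for 24 h and 23 for 48 h (21.2%, 16.4% and 35.3% of all).

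These counts rested on single libraries and on the scale. The count of 10 became 0 with a pseudocount of 0.001, 1 without features of a mean share under 0.02%, and 4 with each library centred. The count of 3 at 48 h became 0 with that pseudocount, 0 with that filter and 10 with a pseudocount of 0.1. The first count also became 0 without either steady-state library of KO or of WT or without WT 24 h replicate 1, and 1, 2, 3 and 5 without KO 24 h replicate 2, KO 48 h replicate 2, WT 24 h replicate 2 and WT 48 h replicate 2. The count of 3 at 48 h became 0 without any one steady-state library, KO 48 h replicate 2 or WT 48 h replicate 2, 1 without either KO 24 h library, and 5 and 6 without KO 48 h replicate 1 and WT 48 h replicate 1. At 24 h, 3 were called without KO 24 h replicate 1, and at steady state 1 without either WT 48 h library.

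Among single pairs only joins of TRAV3-1 to the 3′ end were called between genotypes. TRAV3-1 with Traj6 was lower in KO at steady state (log2 fold change -1.61 ± 0.24 SE, limma adjusted p = 0.0462 over 3397 pairs), 1 of 172 Trav3 pairs where 0.294% of all were called. In the mean of the 3 samplings TRAV3-1 with Traj7 (-1.02 ± 0.15, adjusted p = 0.0260) and with Traj6 (-1.01 ± 0.14, 0.0230) were lower by limma, 2 of 172 where 1.09% of all were called. Of these 2 pairs, 0 separated the genotypes without overlap at every sampling. At 24 h TRAV3-1 with Traj6 was close to 0 in both genotypes, at 0.000821% and 0% in KO, against 0.000853% and 0% in WT. With the replicate block 0 Trav3 pairs were called at steady state and 5 in the mean (0% and 2.24% of all), and without the coarse tables it was 22 and 75 (10.8% and 36.7%). Leaving out 1 library gave 0 or 5 called pairs at steady state, 5 only without either WT 48 h library. In the mean it gave 16 without WT 48 h replicate 2, 7 without WT 48 h replicate 1, 6 without KO 48 h replicate 1, 1 without KO 48 h replicate 2 and 0 without any of the other 8. With a pseudocount of 0.001 or with the filter on low shares 0 pairs were called by limma at steady state and in the mean, and with a pseudocount of 0.1 it called 5 in each.

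At 48 h after tamoxifen the labelled cells used distal copies and 3′ partners more than at 24 h in both genotypes, in measures that this design cannot bring past the threshold. The mean Jα number of Trav3 joins changed by -7.61 in KO and by -10.1 in WT, and the part of the family held by TRAV3D-3 changed by 8.85 percentage points in KO and by 14 in WT. In all 4 same-numbered pairs the Jα number was lower, and the TRAV3D-3 part higher, at 48 h. The exact permutation test of time within genotype allows no p below 0.0556, so no such measure could pass (adjusted p = 0.0641 for 13 of the 15 measures). The family share itself changed by -0.215 points in KO and by -2.02 in WT (adjusted p = 0.179).

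Single copies did not pass this test either. With limma, 0 of 4 copies were called between 24 h and 48 h in KO or in WT, where 1.27% of 79 segments were called in each. In each genotype 2 copies had an unadjusted p under 0.05, and the share of all segments at that level is not given here. The log2 fold change of 48 h over 24 h was 1.92 ± 0.78 (SE) in KO and 2.02 ± 0.78 in WT for TRAV3-1. It was 0.93 ± 0.39 in KO and 0.87 ± 0.39 in WT for TRAV3D-3, -0.11 ± 0.47 in KO and -0.82 ± 0.47 in WT for TRAV3-3, and -0.83 ± 0.49 in KO and -1.66 ± 0.49 in WT for TRAV3-4. Leaving out 1 library at a time moved TRAV3-1 from 0.93 (without KO 24 h replicate 1) to 2.91 (without KO 24 h replicate 2) in KO, and from 1.16 to 2.87 in WT (without WT 24 h replicates 1 and 2). TRAV3D-3 moved from 0.75 to 1.10 in KO, and in WT from 0.32 to 1.41 (without WT 48 h replicates 1 and 2). TRAV3-3 moved from -0.57 to 0.34 in KO (without KO 24 h replicates 2 and 1) and from -1.28 to -0.36 in WT (without WT 48 h replicates 1 and 2). TRAV3-4 moved from -1.38 to -0.28 in KO (without KO 48 h replicates 2 and 1) and from -2.15 to -1.16 in WT (without WT 24 h replicates 1 and 2). With the replicate block limma called TRAV3-1 and TRAV3D-3 higher and TRAV3-4 lower in both genotypes (adjusted p of 0.00164 to 0.0179), and TRAV3-3 lower in WT (-0.82, adjusted p = 0.00334), where 45.6% of segments in KO and 59.5% in WT were called. Without the coarse tables, limma called 3 copies in KO and 4 in WT (39.2% and 58.2% of segments).

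By partner, limma called 11 Trav3 combinations higher and 2 lower at 48 h than at 24 h in KO (of all combinations, 15.5% were called in either direction, 12.2% higher and 3.3% lower), and 9 higher and 12 lower in WT (20.8%, 14.7% higher and 6.12% lower). In KO the called gains were 7 in the middle and 4 in the 3′ window, led by Traj13 (log2 fold change 2.64 ± 0.49 SE, adjusted p = 0.0172), and the losses were Traj58 and Traj57. In WT the called gains were 3 in the middle and 6 in the 3′ window and the losses were 11 in the 5′ window, led by Traj53 (-2.15 ± 0.40, adjusted p = 0.0113), and 1 in the middle. The difference between the genotypes' changes was called by limma for 0 of 43 combinations, where 0% of all were called. Of the 43, 11 had an unadjusted p under 0.05, and the share of all combinations at that level is not given here. The KO count of 13 became 0 without KO 24 h replicate 2 or KO 48 h replicate 2, 6 without KO 48 h replicate 1, and 3 or 4 without any one steady-state library. The WT count of 21 became 0 without WT 24 h replicate 2, 11 or 12 without any one steady-state library, 12 without WT 48 h replicate 1, and stood between 14 and 20 without any other. With a pseudocount of 0.001 the counts were 4 in KO and 3 in WT, and in KO the filter left 7 and centring 5. With the replicate block the counts were 21 in KO and 27 in WT (37.1% and 44.4% of all), and without the coarse tables they were 31 and 32 (54.7% and 61.1%).

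At the level of pairs, limma called 15 Trav3 pairs higher and 6 lower at 48 h than at 24 h in WT (of all pairs, 6.8% were called in either direction, 5.98% higher and 0.824% lower). In KO it called 0 of 172, where 0% of all pairs were called. There 53 of 172 had an unadjusted p under 0.05, and the share of all pairs at that level is not given here. The 10 largest in WT were gains of TRAV3-1 with Traj26, Traj15, Traj18 and Traj39 and of TRAV3D-3 with Traj23 and Traj6, and losses of TRAV3-4 with Traj53, Traj52, Traj49 and Traj45. The WT count ran from 0, without WT 24 h replicate 2 or any one steady-state library, to 36, without either KO 48 h library. It was 9 without either KO 24 h library and 12 without WT 24 h replicate 1. In KO, 4, 6, 6 and 12 pairs were called without KO 24 h replicate 1, WT 48 h replicate 1, WT 48 h replicate 2 and KO 48 h replicate 1. With a pseudocount of 0.001 or with the filter the WT count was 0. With the replicate block 26 were called in KO and 58 in WT (11% and 21.4% of all), and without the coarse tables the numbers were 85 and 102 (36.8% and 47.6%).

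Across the 12 libraries the share of each copy moved with that of other segments, here given as Pearson r of log2(percent + 0.01) without a test, since the libraries share genotype, time and table resolution. The segments most like TRAV3-1 were TRAV8D-2 (0.866), TRAV13D-4 (0.836) and TRAV9D-3 (0.817), and those most like TRAV3D-3 were TRAV12D-2 (0.944), TRAV6D-7 (0.938) and TRAV6-1 (0.929). Those most like TRAV3-3 were TRAV20 (0.962), TRAV19 (0.938) and TRAV6-7/DV9 (0.893), and those most like TRAV3-4 were TRAV4-4/DV10 (0.971), TRAV14-3 (0.958) and TRAV7-5 (0.763). Between copies r was 0.651 for TRAV3-1 with TRAV3D-3, -0.719 for TRAV3-1 with TRAV3-3, -0.838 for TRAV3D-3 with TRAV3-4 and -0.0616 for TRAV3D-3 with TRAV3-3, the pair that differs at 4 bases.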

How the data were processed

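Total RNA of sorted cells was used for template-switch RACE with a Trac primer, per the labels' protocols. The deposited values are fractions of the repertoire per Trav-Traj pair. The aligner, build, segment annotation and counted unit, each not given in the sources used here, leave read depth unknown, and no interval was computed. Fractions were divided by the table's own total and summed per segment, and per family and Traj. Segments listed in only some tables (6) were not tested. Share tests used limma 3.58.1 (R 4.3.3) on log2(percent + 0.01), 1 mean per group, with Benjamini-Hochberg adjustment over all features at 0.05, after a check on simulated data. These fold changes understate changes of low shares. Single values per library used exact permutation tests (scipy 1.17.1), and the sign-flip tests of copies, by library and by pair of libraries, were added later. Same-numbered KO and WT libraries deviated together (r of 0.723, 0.927 and 0.931 at steady state, 24 h and 48 h over 79 segments), so the numbers were taken to pair libraries. This pairing comes from the data. At 24 h and 48 h replicate 2 is the coarse table of each group, so there the block cannot be told apart from table resolution. The rule for naming combinations was to pass the test with both KO libraries on one side of both WT libraries (of the 24 h libraries, for times), at most 10 per contrast. For the mean of the 3 samplings all called Trav3 combinations and pairs were named, also those that did not meet this rule. The leading partners of each copy, and Traj4 and Traj50 in single copies, were named outside it. Neighbours in row order, the 3 most alike segments of each copy and the 5 pairs of highest mean share were also named. Alternatives were another denominator, pseudocounts, a filter, centring, equal weights, the replicate block and left-out libraries. The members and lists were chosen with earlier results of these data known.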

Additional observations from a re-analysis of the deposited data

Results flagged for a closer look

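The middle window (Traj40 to Traj22) of Trav3 joins ran in opposite directions at 2 samplings, with every KO library on one side of every WT library each time. At steady state KO minus WT was 3.18 percentage points (42.7% ± 1.24 in KO and 39.5% ± 0.172 in WT, SD, n = 2 each). At 24 h it was -8.98 percentage points (23.7% ± 4.97 in KO and 32.7% ± 6.92 in WT). The difference between the samplings was not tested.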

How the results depend on the processing

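Dividing by the shared Trav segments kept the direction and the side of the threshold of every count, exact measure and named feature, except the mean KO minus WT of TRAV3D-3, whose sign turned (-0.0107, on the log2 scale, as are the next values). That value, 0.00 with all libraries, was also negative with a pseudocount of 0.1 (-0.00313) and without the 4 coarse tables (-0.172), as were its differences at 24 h (-0.102) and 48 h (-0.267) without them. The replicate block, in the fits given beside each result, moved the number of Trav3 copies called to 2 at 48 h and 2 in the mean of KO minus WT, and to 3 in KO and 4 in WT for 48 h minus 24 h. It moved the called family combinations to 12 at 48 h, 19 in the mean and 21 for 48 h minus 24 h in KO, and the called pairs to 0 at steady state, 5 in the mean, and 26 in KO and 58 in WT for time. Under the block the family share (1.07 points, adjusted p = 0.0721) and the mean row position (5.20 places, 0.0721) lost their calls, as did the 3 sign-flip comparisons between copies (adjusted p of 0.0625 to 0.0833, an alternative added after seeing the data), and no other exact measure did.

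Without the 4 coarse tables the exact test allows no p below 0.0833, so no measure could pass (adjusted p = 0.0962). The differences there were 0.913 points for the family share, 5.74 places for the row position, 5.11 Jα numbers for the family, 4.62 for TRAV3-1, 6.28 for TRAV3D-3, 2.81 for TRAV3-3 and 1.97 for TRAV3-4. The windows gave 13.6 (5′), -10.9 (3′), 4.08 (TEA), 7.87 (Traj49) and -6.0 (most 3′) points. By limma, 3 copies were called in the mean of KO minus WT, and 3 in KO and 4 in WT for time. The called combinations were 16 at steady state, 5 at 24 h, 23 at 48 h, 31 in the mean, and 31 in KO and 32 in WT for time. The called pairs were 22 at steady state, 75 in the mean, and 85 in KO and 102 in WT for time.

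A pseudocount of 0.001 left 0 combinations at 48 h, 0 in the mean, and 4 in KO and 3 in WT for time, and 0 pairs at steady state, in the mean and for time in WT. A pseudocount of 0.1 gave 1 combination at steady state and 10 at 48 h, 5 pairs at steady state, 5 in the mean and 2 for time in KO. Leaving out features with a mean share under 0.02% left 0 combinations at 48 h, 1 in the mean and 7 for time in KO, and 0 pairs at steady state, in the mean and for time in WT. Centring gave 4 combinations in the mean and 5 for time in KO, and 0 pairs at steady state and 1 in the mean. With the copies weighted equally the 5′ (9.34 points), TEA (3.51) and Traj49 (5.29) windows lost their calls (exact test, adjusted p = 0.0694 each), and the change with time of the gap to other Trav segments turned to 1.89, as it did without the coarse tables (0.669). The cause of these changes was not tested.

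Leaving out 1 library at a time gave 0 to 1, 0 to 3, 0 to 6 and 0 to 10 called combinations for KO minus WT (steady state, then 24 h, then 48 h, then the mean), and 0 to 15 in KO and 0 to 20 in WT for time. Called pairs ran from 0 to 5 at steady state, 0 to 16 in the mean, and 0 to 12 in KO and 0 to 36 in WT for time. The exact measures ran from 0.823 to 1.33 points (family share), 4.51 to 5.89 places, 2.98 to 6.60 (TRAV3-1) and 4.77 to 7.03 (TRAV3D-3) Jα numbers, 3.08 to 6.57 points (TEA), and for the gap to other Trav segments from -0.526 to 0.124 between genotypes and from -0.615 to 0.36 with time. On the log2 scale, KO minus WT of uncalled copies ran from -1.25 to 0.73 (TRAV3-1 at 24 h), -1.08 to 0.36 (TRAV3-1 at 48 h), -0.63 to 0.033 (TRAV3-1 in the mean), -0.41 to 0.50 (TRAV3-3 at 24 h), -0.34 to 0.65 (TRAV3-4 at 24 h), -0.069 to 0.16, -0.44 to 0.66 and -0.18 to 0.18 (TRAV3D-3 at 24 h, at 48 h and in the mean), and 48 h minus 24 h of TRAV3-3 in KO from -0.57 to 0.34. The unknown depth limits what low shares can show, most of all in the coarse tables.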
